A study of Acer rubrum with 15 samples.

Results

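miR168 is the plant microRNA family that targets ARGONAUTE1, and its reads were followed here in leaves of Acer rubrum 'Autumn Blaze', a cultivated red maple. The family was taken as every mature or hairpin entry of the deposited table whose name is miR168 followed by a non-digit or by nothing. This gave 8 of 343 such entries, 4 mature and 4 hairpin, under the names miR168a-5p, miR168, miR168-5p and miR168b_1. The sources do not say how reads were placed in a hairpin entry rather than in the mature entry of the same name.

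Small RNA was sequenced from 15 libraries in 5 groups of 3. All groups but the Control were sampled on day 14 of a growth regime. These were CC (100% light, 30 °C days, 20 °C nights), CL (40% light, 30 °C days, 20 °C nights), LC (100% light, 15 °C days, 5 °C nights) and LL (40% light, 15 °C days, 5 °C nights). The Control group was sampled on day 0, before the regimes began, with mixed leaves named in its label and no light level given. All plants were cuttings of the same cultivar that had stood in an ordinary greenhouse. Although the label of each library names it a biological replicate, separate plants are not mentioned. A p-value here thus covers the spread among these libraries only, which may be technical. Day 0 differs from the other groups in both time and regime, and these cannot be told apart.

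A plant microRNA is cut from a folded precursor by DICER-LIKE1 and loaded into an ARGONAUTE protein, usually ARGONAUTE1, which it guides to matching messenger RNAs. In Arabidopsis, miR168 pairs with the messenger RNA of ARGONAUTE1 itself, so the protein takes part in limiting its own production, and ARGONAUTE1 in turn stabilises miR168. No messenger RNA or protein was measured here, so the label of an ARGONAUTE1 regulator rests on the family name alone. The table pairs the entries with miRBase names and holds no sequences. The miR168a-5p entry carries 29 names from 22 species prefixes, among them those of Arabidopsis, poplar, grapevine and sweet orange. The miR168 entry carries a single melon name, miR168-5p a Lotus japonicus name and miR168b_1 a soybean name. Which of several similar names a read was given to is unknown without sequences, so values of single entries are less certain than the family sum.

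The libraries held 15652847 to 20822592 reads, of which 1066040 to 3460917 were under a mature or hairpin entry. The family had 14739 to 121686 reads per library and 561759 in all, which placed it 7th among 35 families by reads. Its largest entry, the mature miR168a-5p, held 88.0% of the family reads. The mature entries miR168, miR168-5p and miR168b_1 held 3.91%, 2.75% and 0.359%. The 4 hairpin entries held 2.95% (miR168a-5p), 1.38% (miR168), 0.523% (miR168-5p) and 0.142% (miR168b_1). Depth is therefore no limit for the family sum, while the hairpin entry of miR168b_1 rests on 4 to 248 reads per library.

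The family was high in cool leaves under full light and low in the other 3 regimes. Levels are CPM, read counts scaled to the named and predicted miRNA reads of a library with TMM factors, with replicates 1, 2 and 3 in that order. In LC the family stood at 56045, 26481 and 22870 CPM (35132 ± 18201, SD, n = 3). In LL it stood at 6583, 7961 and 7083 CPM (7209 ± 698, SD, n = 3). The lowest LC library was above the highest library of every other group. LC replicate 1 was above the other LC libraries by a wide margin in CPM. Its TMM factor, 0.505, was the lowest of all libraries, against 1.18 and 1.04 in LC replicates 2 and 3. As a share of mature and hairpin reads, miR168 held 3.52%, 4.14% and 3.37% in LC, so replicate 1 did not lead there.

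In the warm groups, CC held 11118, 7899 and 5278 CPM (8098 ± 2925, SD, n = 3). CL held 5170, 6814 and 5893 CPM (5959 ± 824, SD, n = 3). On day 0 the Control libraries held 12207, 15074 and 15682 CPM (14321 ± 1856, SD, n = 3). The order of the means was LC, Control, CC, LL and CL. Of the neighbours in that order, LC and Control differed past the threshold, while Control and CC, CC and LL, and LL and CL did not.

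**Figure D1:**
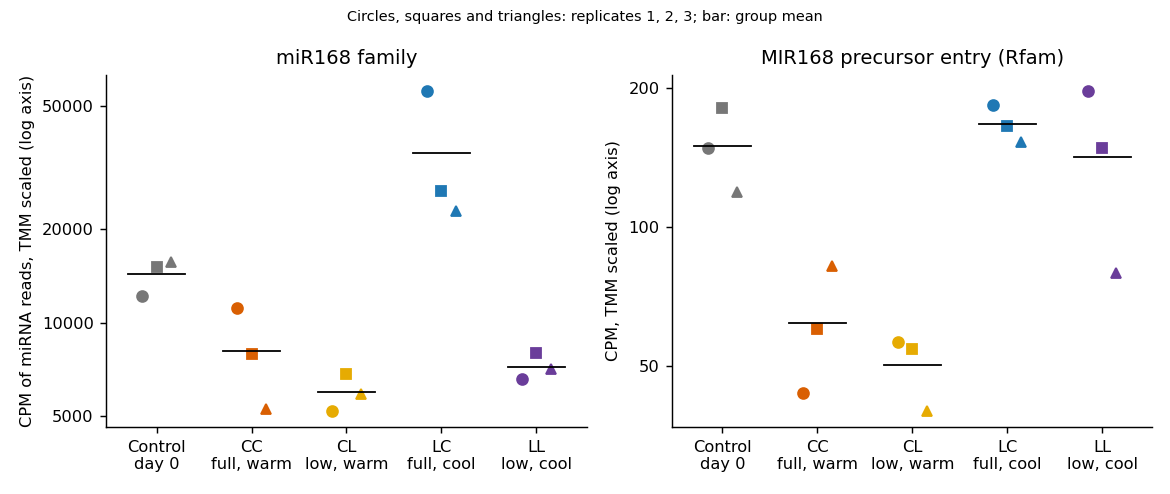
Levels of the miR168 family (left) and of the Rfam entry for the MIR168 precursor (right) in TMM-scaled CPM on log axes, with 3 libraries per group and a bar at the group mean. For the family the 3 LC libraries, at 22870 to 56045 CPM, lie above all others, and LL, at 6583 to 7961 CPM, lies among the warm groups; for the precursor entry LC and LL overlap.

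Under full light the cool regime raised the family. LC was 4.34-fold above CC, a log2 change of 2.12 ± 0.34 (SE) with an adjusted p of 0.000218 (edgeR's quasi-likelihood test, Benjamini-Hochberg adjustment over the 34 families tested), and every LC library was above every CC library. In this comparison 20 of the 34 families passed, 58.8%, and the median log2 change of all families was 0.64, so a call alone was common here. Under 40% light the cool regime made no difference past the threshold: LL against CL was 0.27 ± 0.33 on the log2 scale (adjusted p = 0.596), with a 95% interval of -0.44 to 0.99. There 12 of 34 families passed, 35.3%, with a median log2 change of 0.35.

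The temperature effect on the family differed between the light levels. The interaction, which is the log2 temperature change at 40% light minus that at full light, was -1.84 ± 0.47 (adjusted p = 0.00790). It passed for 11 of 34 families, 32.4%, with a median of -0.52 over all families. Without LC replicate 1 the miR168 interaction was -1.14 (adjusted p = 0.0183). When predicted miRNAs were left out of the table that sets the scaling, it was -1.34 and did not pass (adjusted p = 0.0725).

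Low light lowered the family in the cool regime. LL was 4.87-fold below LC, a log2 change of -2.28 ± 0.35 (adjusted p = 0.000109), with groups that did not overlap. In this comparison 15 of 34 families passed, 44.1%, and the median log2 change was -0.25. Without LC replicate 1 the change was -1.58 and still passed (adjusted p = 0.00013), and without predicted miRNAs in the table it was -1.51 (adjusted p = 0.00459). In the warm regime the groups overlapped: CL against CC was -0.44 ± 0.33 (adjusted p = 0.370), with a 95% interval of -1.16 to 0.27. There 12 of 34 families passed, 35.3%, with a median of -0.11.

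Among the regimes, LC and CL lay furthest apart and LL and CC nearest together, and both pairs differ in both factors. LC, cool and fully lit, was 5.90-fold above CL, warm and shaded (log2 2.56 ± 0.35, adjusted p = 3.82e-05, 44.1% of families called). Without predicted miRNAs in the table this change was 1.75 (adjusted p = 0.00295). LL against CC was -0.17 on the log2 scale and did not pass (adjusted p = 0.851, 32.4% called). Averaged over both light levels the cool regime was higher by 1.20 ± 0.24 on the log2 scale (adjusted p = 0.00116, 38.2% called). Averaged over both temperatures low light changed the family by -1.36 ± 0.24 (adjusted p = 0.000427, 44.1% called). Both averages pool the unlike single effects given above.

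The family changed from day 0 in both directions. These 4 comparisons share the Control libraries. LC was above Control by 1.29 ± 0.34 on the log2 scale (adjusted p = 0.00699, 44.1% of families called). CL was below it by a log2 change of -1.27 ± 0.34 (adjusted p = 0.00971, 38.2% called) and LL by -0.99 ± 0.33 (adjusted p = 0.0412, 32.4% called). CC stood at -0.82 ± 0.33 and did not pass (adjusted p = 0.0872, 26.5% called), although no CC library reached the lowest Control library.

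The calls against day 0 were the least firm for miR168. Without predicted miRNAs in the table LC against Control was 0.92 (adjusted p = 0.0700), CL -0.82 (adjusted p = 0.0950) and LL -0.59 (adjusted p = 0.246), none of them past the threshold. Without LC replicate 1, LC against Control was 0.66 (adjusted p = 0.0405), and the LL call was lost whenever any Control or LL library was left out.

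The library with the highest miR168 level, LC replicate 1, also differed from the other LC libraries in its makeup. Reads of miR398, a family known for targeting copper and zinc superoxide dismutases, made up 32.6% of its mature and hairpin reads, against 8.33% and 6.16% in the other LC libraries. That share was 29.9% to 45.2% in LL and 33.1% to 48.2% in Control, and 1.13% to 5.50% in the warm groups, so it lay within the range of LL. Scaled to all reads of the table, as the deposited TPM is, its miR168 level was 7469 TPM, against 4896 and 3539 TPM in replicates 2 and 3. The highest value outside LC on that scale was 2645 TPM, in a Control library, so LC stayed above every other group without miRNA-based scaling. As a share of the mature and hairpin reads without miR398, miR168 held 5.22%, 4.51% and 3.59% in LC. Control held 3.18%, 3.54% and 4.09% on that scale, so LC and Control overlapped there. CC, CL and LL stayed below LC, at 2.31% or less. The part of the miR398 reads in the miR168 levels was not tested.

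The mature entries did not all follow the family. The main entry, miR168a-5p, did: its LC libraries held 42951, 26878 and 22339 CPM and its LL libraries 5696, 8209 and 7077 CPM. CC held 9399, 7223 and 5580 CPM and CL 4763, 6786 and 5091 CPM, so CC, CL and LL overlapped while LC stood clear. LC was above CC by a log2 change of 2.05 ± 0.28 (adjusted p = 0.000114). LL against LC was -2.14 ± 0.28 (adjusted p = 8.00e-05). LL against CL (0.33, adjusted p = 0.411) and CL against CC (-0.42, adjusted p = 0.335) did not pass, and the interaction was -1.72 ± 0.38 (adjusted p = 0.00473).

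The mature entry named miR168 passed the test in all 4 single-factor comparisons. It held 605, 602 and 330 CPM in CC, 113, 183 and 133 CPM in CL, 1971, 1068 and 988 CPM in LC, and 321, 404 and 332 CPM in LL. CL was its lowest group, and its LC libraries were above all others. Cool leaves were higher under full light (1.39 ± 0.32, adjusted p = 0.00367) and under 40% light (1.30 ± 0.32, adjusted p = 0.0117). Low light was lower in the warm regime (-1.84 ± 0.32, adjusted p = 0.00761) and in the cool regime (-1.93 ± 0.32, adjusted p = 0.000506). Its interaction was -0.09 ± 0.44 (adjusted p = 0.924). The LL against CL call was lost under 6 of 17 alternatives and the LC against CC call with only the groups compared (adjusted p = 0.0563). The CL against CC call was lost without CC replicate 2 (-1.44, adjusted p = 0.0733) and without CL replicate 1 (-1.59, adjusted p = 0.0527), and in the paired fit given below.

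The mature miR168-5p moved as the miR168 entry did, with smaller changes. It held 400, 351 and 353 CPM in CC, 167, 209 and 165 CPM in CL, 986, 504 and 518 CPM in LC, and 342, 400 and 297 CPM in LL. LC was above CC by 0.86 (adjusted p = 0.0163) and LL below LC by a log2 change of -0.95 (adjusted p = 0.00932). LL against CL was 0.94 (adjusted p = 0.0207) and CL against CC -1.03 (adjusted p = 0.0195), calls that were lost under 13 and 11 of 17 alternatives. The LC against CC call was lost under 4 of 16 alternatives, among them without LC replicate 1 (0.61, adjusted p = 0.0520), and the LL against LC call under 3 of 16, among them without LL replicate 3 (-0.95, adjusted p = 0.0712).

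The scarcest mature entry, miR168b_1, was the exception at full light. It held 110, 143 and 18.4 CPM in CC and 85.9, 70.5 and 107 CPM in LC, and did not pass there. In CL it held 12.2, 19.5 and 12.7 CPM and in LL 28.0, 29.2 and 23.3 CPM. It fell under low light in the cool regime (-1.71 ± 0.54, adjusted p = 0.0204) and in the warm regime (-2.61 ± 0.56, adjusted p = 0.0104), although CC replicate 3 lay within the range of CL. These calls were lost under 4 of 16 and 4 of 17 alternatives. Among the losses in the warm regime was the fit without CC replicate 2 (-1.86, adjusted p = 0.0747).

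Same-numbered libraries deviated together in CC and CL (correlations of 0.14 to 0.31) and in CL and LL (0.54 to 0.77). Over all groups, 14 of 30 same-numbered pairs and 23 of 60 differently numbered pairs had a correlation above 0.1. The 2 pairs of groups, picked after the data were seen, were also fitted with the replicate number as a block. Each of these fits held only its own 6 libraries. In CL against CC none of the mature miR168 calls was kept in that fit: miR168 stood at -1.66 (adjusted p = 0.128), miR168-5p at -0.88 (adjusted p = 0.142) and miR168b_1 at -2.09 (adjusted p = 0.200). In LL against CL the mature miR168 kept its call (1.10, adjusted p = 0.0315) and miR168-5p lost it (0.72, adjusted p = 0.0526).

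Counted over the 4 mature entries, 3 rose in LC against CC, where 42.5% of the 179 mature and predicted miRNAs passed and 18.4% rose. In LL against CL 2 rose (26.8% passed and 17.3% rose in all). In CL against CC 3 fell (17.3% passed, 12.8% fell), and in LL against LC all 4 fell (50.8% passed, 19% fell). The interaction was below 0 past the threshold for 1 of 4 (34.6% passed, 9.5% below 0). The median log2 change of the 4 was 1.13 in LC against CC and -1.82 in LL against LC, beside 0.16 and -0.03 over all 179 miRNAs.

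**Figure D2:**
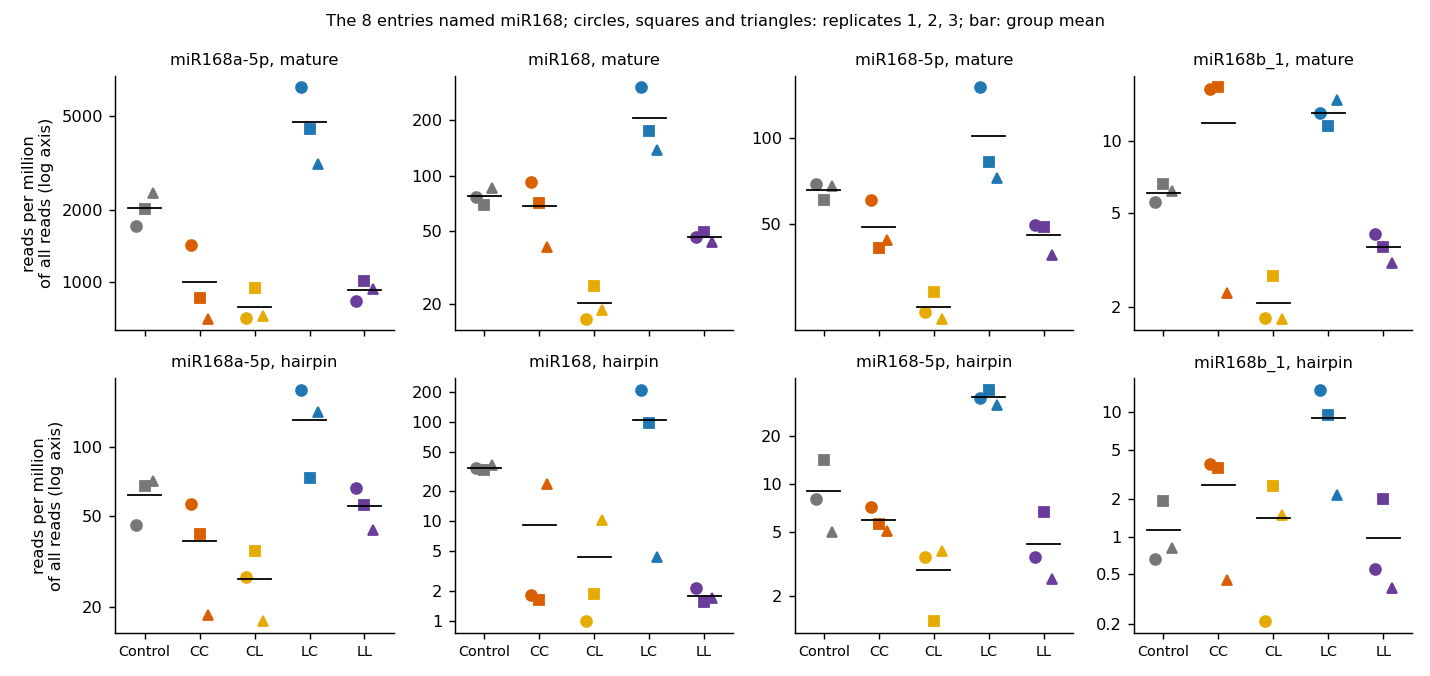
Levels scaled to all reads in the table (as the deposited TPM) for the 8 miR168 entries, mature above and hairpin below, on log axes that differ between panels, with 3 libraries per group and a bar at the mean. The mature miR168a-5p separates LC alone from the other regimes, the mature miR168 and miR168-5p have CL as their lowest group, and the hairpin entry of miR168 splits within CC, CL and LC.

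**Figure D3:**
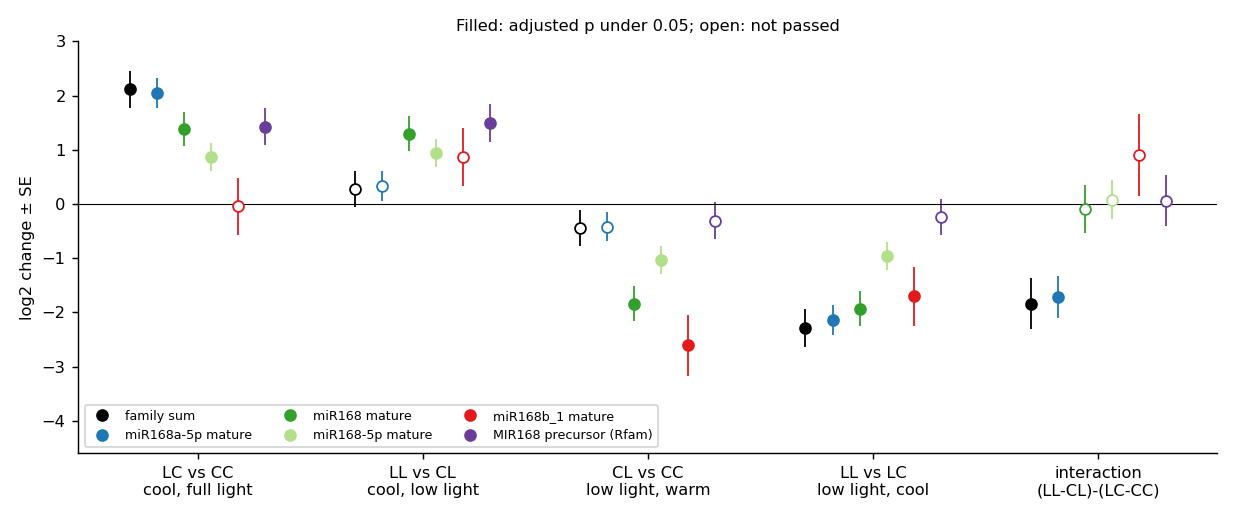
Log2 changes with their standard errors for the family, its 4 mature entries and the Rfam precursor entry in the 4 single-factor comparisons and the interaction, with filled symbols for an adjusted p under 0.05. The family and the mature miR168a-5p have an interaction away from 0 (-1.84 and -1.72), while those of the mature miR168 and of the precursor entry are near 0 (-0.09 and 0.06).

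The division of the family reads over its names differed between libraries. In CC the mature miR168a-5p held 85.7%, 82.4% and 83.7% of the family reads, and in LL 82.7%, 85.7% and 87.4%. In CL it held 90.4%, 90.5% and 90.3%, and in LC 87.9%, 90.0% and 88.5%. Every CC and LL library was below every CL and LC library, with Control at 87.7%, 88.9% and 89.7%. This separation by the combination of light and temperature was noticed in the values and is given as a description, with no test.

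Averaged over the other factor, the share of the mature miR168a-5p differed by -0.11 points between cool and warm leaves (exact permutation p = 0.920). Between low and full light it differed by 1.44 points (exact permutation p = 0.455). Both averages pool differences of opposite sign, so these tests cannot show whether temperature or light changed the share. Cool minus warm was 4.90 points under full light and -5.12 points under low light. Low minus full light was 6.45 points in the warm regime and -3.56 points in the cool regime. The single differences were not tested. The mature miR168 held 5.78% ± 0.99 of family reads in CC and 4.33% ± 0.30 in LL, against 2.32% ± 0.15 in CL and 3.84% ± 0.24 in LC (SD, n = 3). The mature miR168-5p held 4.31% ± 0.87 in CC and 4.27% ± 0.66 in LL, against 2.96% ± 0.19 in CL and 1.92% ± 0.20 in LC. The hairpin entries together held 4.09% (CL) to 5.79% (LL) as group means. Their share passed neither the temperature nor the light test (exact permutation, p adjusted over 6 tests of 0.330 and 0.920). Its light differences also had opposite signs, at -0.90 points in the warm regime and 0.68 points in the cool regime.

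**Figure D4:**
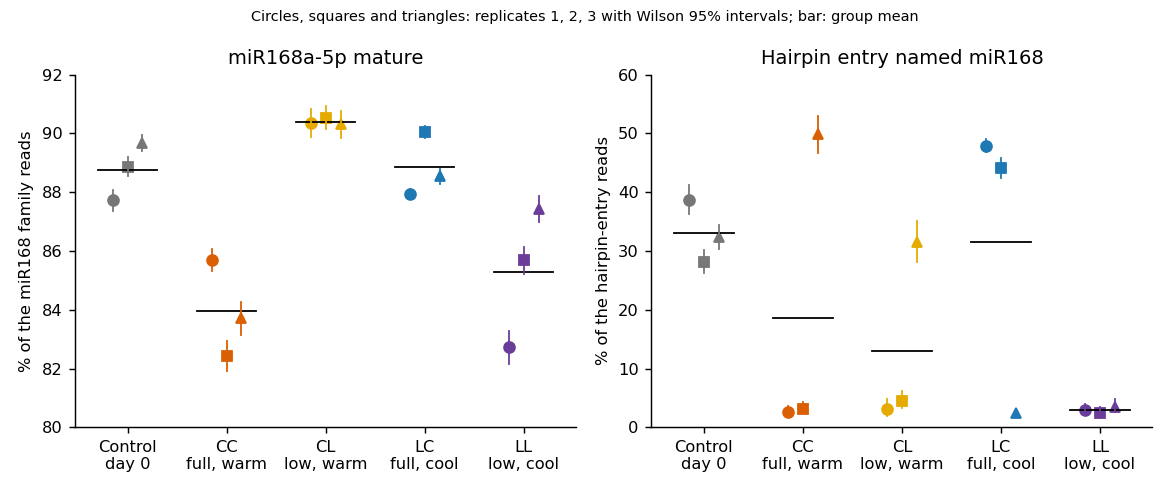
Share of the miR168 family reads under the mature miR168a-5p (left) and share of the hairpin reads under the hairpin entry named miR168 (right), in percent by library, with Wilson 95% intervals that cover counting error only and a bar at the mean of the 3 libraries of a group. The 6 CC and LL libraries lie at 82.4% to 87.4% for miR168a-5p and the 6 CL and LC libraries at 87.9% to 90.5% (this axis does not start at 0), while the hairpin shares split within CC, CL and LC.

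Reads under the hairpin entries are far fewer and were more variable. For miR168-5p the hairpin entry held 565, 633 and 495 reads in LC, 149, 116 and 102 in CC, 67, 29 and 80 in CL, and 64, 123 and 53 in LL. LC stood clear of all other groups for this entry. It rose in LC against CC (2.26 ± 0.50, adjusted p = 0.00392) and fell in LL against LC (log2 -2.55 ± 0.50, adjusted p = 0.00174). The hairpin entry of miR168a-5p rose in LC against CC (1.46 ± 0.42, adjusted p = 0.0177). That call was lost under 5 of 15 alternatives, among them without CC replicate 3 (0.99), LC replicate 1 (1.01) and LC replicate 3 (1.33).

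The hairpin entry of miR168 split within groups. It held 3398, 1553 and 69 reads in LC, 38, 34 and 478 in CC, and 19, 39 and 217 in CL. In Control it held 567, 539 and 680 reads and in LL 39, 29 and 35. One library in each of LC, CC and CL thus went against the other members of its group. LC against CC did not pass for it (3.18 ± 1.34, adjusted p = 0.0828). That change passed with DESeq2 (3.27, adjusted p = 0.0147), without CC replicate 3 (5.43, adjusted p = 0.0193) and without LC replicate 3 (3.68, adjusted p = 0.0357), and was 1.92 at the lowest with 1 library left out. LL was below LC by a log2 change of -5.33 ± 1.49 (adjusted p = 0.0125). With these, 2 of the 4 hairpin entries rose in LC against CC, where 35.6% of the 284 mature, predicted and hairpin entries passed and 16.9% rose. In LL against LC 2 fell, where 44.4% passed and 15.8% fell. None passed in LL against CL (23.9%), CL against CC (12.3%) or the interaction (27.8%).

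A further entry is the Rfam family "microRNA MIR168", a model of the precursor. It was not counted as a member and was looked at after its values were seen. It held 137, 160 and 222 reads in CC, 132, 142 and 108 in CL, 617, 513 and 415 in LC, 511, 379 and 243 in LL, and 362, 550 and 391 in Control. Every cool library had more of these reads than any warm library, although in CPM LL replicate 3 (79.5) lay just below CC replicate 3 (82.2), and LC and LL overlapped.

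The precursor entry of MIR168 was therefore higher in cool than in warm leaves under both light levels. The log2 difference was 1.43 ± 0.35 in LC against CC (adjusted p = 0.00681, 33.6% of 318 entries called). In LL against CL it was 1.49 ± 0.35 (adjusted p = 0.00885, 23.3% called). Against day 0 the cool groups did not differ past the threshold (LC 0.16, adjusted p = 0.775, and LL -0.08, adjusted p = 0.892). The warm groups lay below day 0 (CC -1.27, adjusted p = 0.0219, and CL -1.57, adjusted p = 0.00573). Light did not change the precursor entry past the threshold in the warm regime (-0.30, adjusted p = 0.629, 13.5% called) or in the cool regime (-0.24, adjusted p = 0.619, 49.4% called). Its interaction was 0.06 ± 0.48 (adjusted p = 0.937, 24.2% called). Per 1000 family reads the precursor entry had 28.1, 17.5 and 11.1 reads in LL and 5.07, 6.48 and 7.49 in LC. CC had 3.98, 7.53 and 13.3 and CL 8.96, 6.59 and 6.56. All LL values were above all LC values. Averaged over the other factor, the log2 ratio passed neither the temperature nor the light test (exact permutation, adjusted p of 0.430 and 0.330). Both averages pool unlike differences, so these tests cannot show whether LL and LC differed. Cool minus warm was -0.23 under full light and 1.27 under low light. Low minus full light was -0.014 in the warm regime and 1.49 in the cool regime. These single differences of the ratio were not tested.

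Other families of the small-RNA pathway were measured in the same libraries. They were miR162, which targets DICER-LIKE1, miR403, which targets ARGONAUTE2, miR390, which acts with ARGONAUTE7 on the TAS3 transcripts, and miR828, miR393 and miR482, which are known triggers of secondary small interfering RNAs. Of these 6, 1 rose and 1 fell in LC against CC, where 44.1% of all families rose and 14.7% fell. In LL against CL 1 fell (11.8% of all families), and in LL against LC 1 fell (26.5%). In CL against CC 1 rose and 2 fell (11.8% and 23.5% of all families), and the interaction was below 0 past the threshold for 1 (20.6%). Their median log2 change was 0.49 in LC against CC and -0.25 in LL against LC, beside 0.64 and -0.25 over all families.

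Of this list miR390 was nearest to miR168 in its pattern over the groups. It held 777, 566 and 652 CPM in LC, 343, 372 and 325 CPM in CC, 155, 169 and 248 CPM in CL, and 228, 189 and 268 CPM in LL. It rose in LC against CC (0.94 ± 0.21, adjusted p = 0.00239), and fell under low light in the cool (-1.54 ± 0.21, adjusted p = 4.83e-05) and the warm regime (-0.86 ± 0.21, adjusted p = 0.00537). All 3 miR390 calls were lost without predicted miRNAs in the table (0.40, -0.81 and -0.60), and the last also in the paired fit of CC and CL (-0.99, adjusted p = 0.0562). Its interaction, -0.68 ± 0.29, did not pass (adjusted p = 0.0811).

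The ARGONAUTE2 regulator miR403 went the other way from miR168 in LC against CC, falling by a log2 change of -0.49 (adjusted p = 0.0286, lost under 9 of 18 alternatives). It also fell in CL against CC (-0.83, adjusted p = 0.00260), a call that was lost without predicted miRNAs in the table (-0.62, adjusted p = 0.0836) and in the paired fit of CC and CL (-0.93, adjusted p = 0.0821). miR393 fell in LL against CL (-0.82, adjusted p = 0.0155, lost under 4 of 19 alternatives) and rose in CL against CC (0.68, adjusted p = 0.0449, lost under 9 of 19, with 0.57 and an adjusted p of 0.113 in the paired fit). Its interaction was -0.98 (adjusted p = 0.0398), lost under 10 of 24 alternatives. It was -0.47 (adjusted p = 0.593) without predicted miRNAs in the table. miR162, miR482 and miR828 passed in none of these 5 comparisons.

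Likeness of pattern was described, without a test, as the mean absolute difference of log2 CPM group means over the 5 groups, each centred on its own mean. The families nearest to miR168 of 33 were miR390 at 0.246, miR156 at 0.340, miR171 at 0.402, miR845 at 0.410 and miR2111 at 0.477, with a median of 0.857 over all. miR156, which targets SPL transcription factors, stood at 1.51 in LC and -1.10 in LL on the centred log2 scale. miR845 and miR2111 were scarce, with means of 7.18 and 15.2 CPM. Among 153 single mature or predicted miRNAs the nearest were miR156a-5p (0.304), miR156k_2 (0.388), miR166g-3p (0.419), miR157d-3p (0.426) and the predicted novel_mir36 (0.430), with a median of 1.03. All points share the same 15 libraries and scaling.

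**Figure D5:**
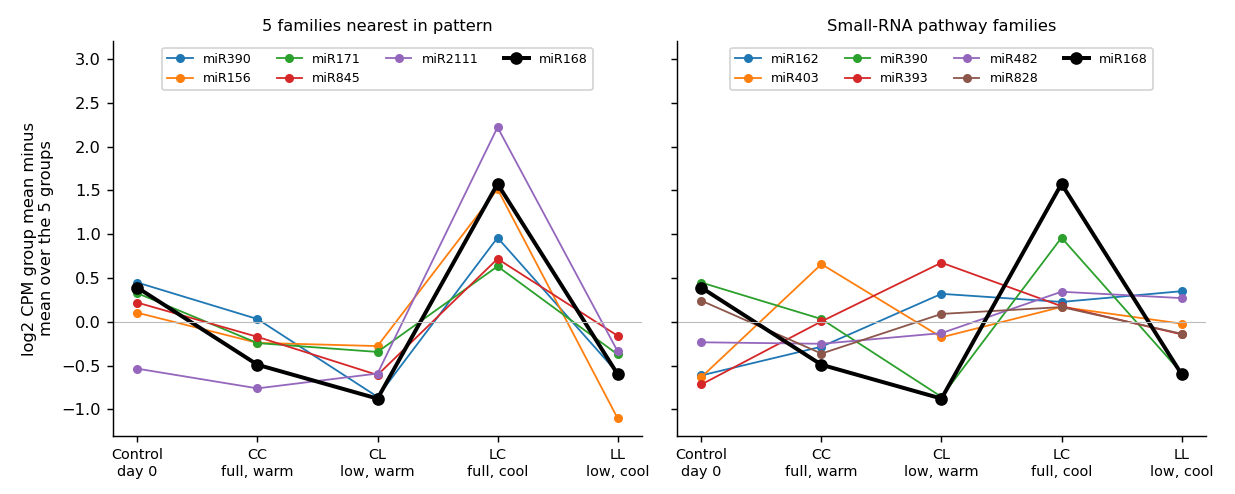
Centred log2 CPM group means of miR168 beside the 5 families nearest to it in pattern (left) and beside the measured families of the small-RNA pathway list (right). In all 5 near families LC is the highest group, which follows in part from picking them by likeness over these same means. At a mean absolute difference of 0.246, miR390 lies nearest to miR168.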

How the data were processed

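The authors deposited 1 table with raw counts of reads per small-RNA entry and TPM values. The deposited TPM equals reads scaled to the sum of the table (largest difference 0.005), without regard to length, and entered no test. For trimming, alignment, build and databases nothing is given in the sources used here. Per the labels' protocols, an RNeasy kit was used for RNA and PAGE for size selection of the libraries. All per-sample columns were matched to samples by name, and 0 pairs of libraries held identical counts.

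Counts were tested in edgeR 4.0.16 (R 4.3.3; TMM, filterByExpr, quasi-likelihood) with 1 mean per group over all 15 libraries, in 13 comparisons. Benjamini-Hochberg adjustment ran within each comparison, and an adjusted p below 0.05 is termed a call. SE is the log2 change divided by the root of F. Families sum mature and hairpin reads with the same miRNA number. Single mature entries were fitted with predicted miRNAs, and hairpin and Rfam entries in larger tables of their own, so that CPM is not the same unit between fits.

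The written test design names the family sums and does not mention predicted miRNAs. The 34 families were first fitted alone. They were then fitted in a table with the predicted miRNAs, which enter the scaling but not the adjustment. The second fit departs from the plainest reading of the design and was made the main one after both had been seen. It is how these data were processed in earlier work. Its median log2 change lies within 0.12 of that with all reads as library size. That comparison was not made for the families fitted alone, so it favours neither fit. The second fit also gives miR168 more calls, and for miR168 and the named families both values are printed where they differ in a call. In the table with hairpin entries, all-reads scaling moved the median by up to 0.49 (LL against LC).

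Shares of family reads were compared by exact permutation tests over libraries. Pairing was checked as the correlation, over families, of the deviations of same-numbered libraries from their group means. All 3 pairs were above 0.1 for CL and LL (0.54 to 0.77) and for CC and CL (0.14 to 0.31). They were not for the other 8 pairs of groups (LC and LL: -0.75 to -0.39, CL and LC: -0.55 to -0.37). The median was 0.075 over all 30 same-numbered pairs and -0.022 over the 60 differently numbered ones, which reached 0.59. The labels say nothing of what a number marks. For these 2 comparisons a fit of the 6 libraries with the number as a block was added after the data were seen. Members, lists and tests were chosen with earlier results of these data known. Named are all members, the 5 families and 5 miRNAs (mean of at least 10 CPM) nearest in pattern, and a list of small-RNA pathway families, of which miR173, miR2118 and miR472 had 0 entries. The Rfam entry, its ratio and the choice of values printed for comparisons that did not pass were settled after values were seen. Alternatives were other scalings, filters, DESeq2 1.42.0, a replicate block, a fit of only the groups compared, other sums, and each library left out. Fits were run on simulated data for LC against CC only, which did not cover the interaction or the day 0 comparisons. Figures were drawn with matplotlib 3.10.9.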

Additional observations from a re-analysis of the deposited data

Results flagged for a closer look

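The temperature effect on the miR168 family differed between the light levels by a test of the difference itself: the interaction was -1.84 on the log2 scale (edgeR's quasi-likelihood test, adjusted p = 0.00790), from temperature changes of 2.12 under full light and 0.27 under 40% light. Without predicted miRNAs in the table this family interaction was -1.34 and did not pass (adjusted p = 0.0725). Without LC replicate 1 it was -1.14 and still passed. The mature miR168a-5p entry, which holds most of the family reads, was flagged in the same way, with an interaction of -1.72 (adjusted p = 0.00473) and temperature changes of 2.05 and 0.33.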

How the results depend on the processing

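For the miR168 family the calls of LC against CC, LL against LC, LC against CL and both averages were kept under every alternative run. Without predicted miRNAs in the table CL (-0.82), LC (0.92) and LL (-0.59) against Control and the interaction (-1.34) no longer passed, and LL against CC turned to 0.064. With 1 library left out, LL against Control ranged from -1.09 to -0.90 and lost its call each time. CC against Control, uncalled, passed with relative log expression factors (-0.83), library size only (-0.78), all reads (-0.96), no filter (-0.97), DESeq2 (-0.83), only the groups compared (-0.93) and hairpin reads left out (-0.81), and ranged from -1.12 to -0.59 with 1 library left out, passing without CC replicate 1 (-1.12). LL against CL turned to -0.032 with library size only. LL against CC turned to 0.046 with no filter and 0.025 with only the groups compared, and ranged from -0.40 to 0.13 with 1 library left out.

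The number of families called in LC against CC fell from 20 to 11 with only the groups compared, and in LC against CL from 15 to 9. It fell in LL against CL from 12 to 4 without CL replicate 3 and to 6 without LL replicate 1. In LL against Control it fell from 11 to 7 with 1 library left out, and in LL against CC from 11 to 5 at the lowest. Of single mature and predicted miRNAs, with predicted ones left out and so fewer tested, 32 in place of 76 were called in LC against CC, 29 for 48 in LL against CL, 13 for 31 in CL against CC, 45 for 91 in LL against LC and 24 for 62 in the interaction. Without CC replicate 2, 11 were called in CL against CC. With hairpin entries in the table the CL against CC calls went from 35 to 11 without CL replicate 1 and 61 with DESeq2, and those of LL against CL from 68 to 43 without LL replicate 1. LC against CC went there from 101 to 45, LL against LC from 126 to 77 and the interaction from 79 to 40 with predicted miRNAs left out. With the replicate number as a block over all libraries LC against Control was 1.22. With the block and only the groups compared, the miR168 family stood at 0.31 in LL against CL and -0.48 in CL against CC, and neither block changed a family call of miR168. In that paired fit 6 families in place of 12 and 0 of 166 mature and predicted miRNAs were called in CL against CC by edgeR. Of the latter, 41 had an unadjusted p under 0.05. Without the block and over all 15 libraries, edgeR called 31 of 179 and DESeq2 45 of 179.

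The uncalled change of the mature miR168a-5p in LL against CL turned to -0.11 with library size only and -0.011 with the stricter filter. The uncalled interaction of the MIR168 precursor entry turned below 0 with relative log expression factors (-0.025), library size only (-0.20), all reads (-0.24), no filter (-0.063) and DESeq2 (-0.026). With 1 library left out that interaction ranged from -0.42 to 0.13, the precursor's CL against CC from -0.41 to 0.089, the miR168a-5p changes from -0.045 to 0.28 (LL against CL) and -0.56 to 0.022 (CL against CC), and the mature miR168 interaction from -0.77 to 0.12.

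Averaged over the light levels, the temperature difference of the miR168a-5p share turned to 0.77 points with hairpin reads left out. That average ranged from -0.65 to 0.52 with 1 library left out. The hairpin share by light ranged from -0.47 to 0.21 points. The log2 precursor ratio ranged from 0.30 to 0.73 by temperature and 0.52 to 0.95 by light, each past an unadjusted 0.05 without CC replicate 3. With the largest difference in place of the mean, 3 of 5 nearest families and 3 of 5 nearest miRNAs were shared. The cause of these changes was not tested.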

Other observations

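The share of hairpin reads under the miR168 name fell into separate ranges that split CC, CL and LC but not LL or Control. It was 49.8% in CC replicate 3, 31.5% in CL replicate 3, and at most 47.9% in LC, whose replicate 3 had 2.46%. The LL libraries had 2.38% to 3.54%, and the Control libraries 28.1% to 38.7%. The mature miR168b_1 was also low in CC replicate 3, with 46 reads against 344 and 347.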
